A study of Mus musculus with 4 samples.

Results

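The genes described here build and run the transport system of cilia and flagella: intraflagellar transport (IFT) complexes A and B, the IFT dynein, the BBSome with its chaperonins and GTPases, and the transition zone at the cilium's base. They were chosen by name and function, and 46 of 46 were found among the 22552 gene symbols of each table. Transcript levels came from haploid cells sorted by Hoechst fluorescence from mouse testes and labelled as round spermatids, the early haploid cells that have yet to shape their nucleus. The mice, aged 23 days, gave 4 libraries, of which 2 were wild type and 2 Sox30 knockout. The strain label reads DBA/C57/ICR and DBA/C59/ICR for wild-type libraries 1 and 2, and DBA/C58/ICR and DBA/C60/ICR for knockout libraries 1 and 2. The middle number goes up by 1 from each deposited sample to the next, so whether the libraries differ in strain is unclear, and the label was not used. The labels leave unsaid which part of Sox30 was removed, whether animals were pooled and whether the libraries of a genotype are separate animals. The p-values therefore reflect differences between these libraries only, which may be technical.

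In cilia, IFT trains carry building material outward along the axoneme with kinesin-2 and are returned by the IFT dynein, with IFT-B linked mostly to the outward and IFT-A to the return journey. The BBSome is a coat-like adaptor that moves membrane proteins along with these trains, and the transition zone is a gate that decides which proteins enter. Spermatids start to grow the sperm flagellum while still round, and several IFT proteins are needed in the mouse testis to build it.

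Levels are in FPKM, fragment numbers corrected for the length of the transcript and the size of the library, a unit in which genes can be compared with each other. The tables hold no read counts, so the number of fragments behind each value is unknown. A log2 change below is the knockout minus the wild-type mean of log2(FPKM + 1), which understates the change of low genes. Standard errors (SE) come from a limma fit over 9124 genes with a mean of at least 1 FPKM. P-values were adjusted over those 9124 genes, and 0.05 was the threshold. With 2 libraries against 2, an exact permutation test of a single gene cannot go below p = 0.333 (two-sided).

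Sox30 itself stood at 11.4 and 16.2 FPKM in wild-type cells, and at 1.46 and 3.16 FPKM in the knockout. The sort was checked against marker lists. Of 15 round spermatid markers 11 fell, 0 rose and 4 did not pass, where 13.4% of all genes tested were called lower. The summed level of the 15 lay between 8452 and 13178 FPKM in wild-type cells and between 512 and 768 FPKM in the knockout. Prm1, Prm2, Tnp1 and Tnp2 made up most of the wild-type sum, with Prm1 at 5537 and 3145 versus 25.2 and 1.54 FPKM. The 4 that did not pass included Spata16, the only marker of the 15 that overlapped, at 174 and 205 versus 193 and 154 FPKM. The remaining 14 lay lower in both knockout libraries, among them Acr, Zpbp and Dpy19l2, which did not pass. Spermatocyte markers summed to 463 to 484 FPKM in wild-type cells and 434 to 562 FPKM in the knockout, with 0 of 8 tested past the threshold. Of these 8, 7 lay lower in both knockout libraries, as did 38.6% of all genes tested. The median log2 change of the 8 was -0.82, and 3 were lower at an unadjusted p under 0.05 (23.0% of all genes tested). The sum was held up by Ccna1, at 163 and 192 versus 369 and 210 FPKM. Spermatogonium markers summed to 40.3 to 43.5 against 20.1 to 21.3 FPKM, and 5 of 10 were listed at 0 in both knockout libraries. Id4 made up most of the knockout sum, at 7.50 and 7.68 versus 13.0 and 15.5 FPKM. Nanos3 overlapped at 1.47 and 0.956 versus 1.08 and 2.41 FPKM. Of the 5 spermatogonium markers tested, 3 fell, and Id4 and Nanos3 did not pass. Sertoli cell markers, mostly Clu and Inha, summed to 98.2 FPKM in wild-type library 1, 261 FPKM in wild-type library 2 and 72.9 and 23.2 FPKM in the knockout libraries. The Sertoli gene Amh was listed at 0 in all 4. Leydig cell markers reached 60.3 FPKM in wild-type cells and 0.0674 FPKM in the knockout, peritubular markers 9.44 and 2.23 FPKM, and red blood cell markers 248 and 8.51 FPKM. Macrophage markers stayed at or under 1.54 FPKM in sum. Markers of somatic motile cilia summed to 2.11 and 4.18 FPKM in wild-type cells and reached at least 8.88 FPKM in both knockout libraries, with Tmem212 listed at 0 throughout. The part of these marker differences in the results below was not tested, and in such bulk samples fewer cells of a type and less RNA per cell cannot be told apart.

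Most of the transport machinery was transcribed in sorted cells of both genotypes, and few of its genes passed the test between them. Of the 46 genes, 42 reached a mean of 1 FPKM and were tested. Bbs5 and Cep290 fell, 0 rose and 40 did not pass. Those 2 are 4.76% of the 42, where 15.3% of all genes tested passed, 13.4% lower and 1.95% higher in the knockout. Without overlap between the groups, 22 of the 42 lay lower in the knockout (52.4%, against 38.6% of all genes tested) and 6 lay higher (14.3% against 22.2%). At an unadjusted p under 0.05, 11 were lower (26.2% against 23.0%) and 3 higher (7.14% against 8.30%). A log2 change below 0 was found for 32 (76.2% against 59.8%). The median change of the 42 was -0.51, beside -0.23 for all genes tested.

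**Figure D1:**
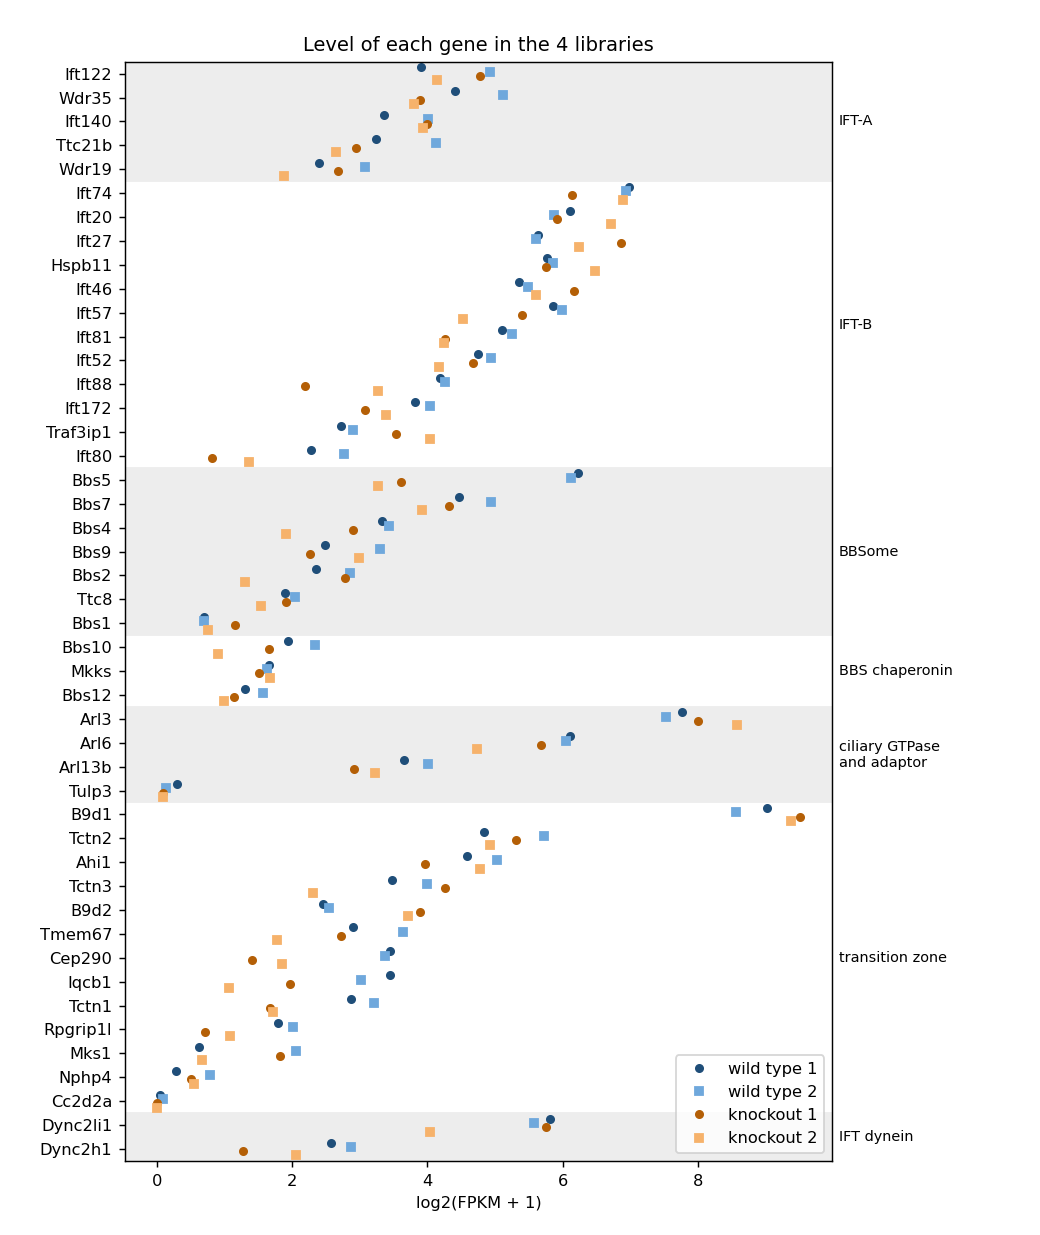
Level of all 46 genes in each library as log2(FPKM + 1), sorted within each group by mean level, with wild-type libraries in blue and knockout libraries in orange. B9d1 and Arl3 stand highest in all 4 libraries, the wild-type points of Bbs5 lie well to the right of its knockout points, and Cc2d2a and Tulp3 lie near 0.

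Levels differed widely within each complex. B9d1, a small B9-domain protein of the transition zone, was the most abundant of the 46, at 516 and 378 FPKM in wild-type cells and 726 and 665 FPKM in the knockout, and its wild-type mean stood at percentile 99.0 of all symbols. Arl3, a GTPase that releases lipid-anchored cargo inside cilia, came next at 216 and 183 versus 255 and 381 FPKM. Both stood higher in each knockout library than in either wild-type library, and neither passed the test (limma adjusted p = 0.183 and 0.219). At the other end, 4 genes missed the mean of 1 FPKM and were not tested. They were the BBSome subunit Bbs1, at 0.624 and 0.619 versus 1.23 and 0.695 FPKM, and Tulp3, an adaptor that brings receptors to IFT-A, at 0.222 and 0.102 versus 0.0649 and 0.0690 FPKM. The other two belong to the transition zone: Nphp4 was at 0.211 and 0.731 versus 0.413 and 0.462 FPKM, and Cc2d2a at 0.0363 and 0.0611 FPKM in wild-type cells, with 0 listed for each knockout library.

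The BBSome held the clearest loss. Bbs5, a subunit that binds phosphoinositide lipids, was at 73.8 and 68.7 FPKM in wild-type cells, and at 11.2 and 8.59 FPKM in the knockout. Every wild-type value was thus several times every knockout value, and the groups were far apart. Bbs5 fell, with a change of -2.74 in log2 units (standard error 0.31) at a limma adjusted p of 0.00296. It supplied 63.6% and 54.1% of the summed FPKM of the 7 BBSome subunits in wild-type cells and 22.3% and 23.5% in the knockout. The other 6 subunits together summed to 42.2 and 58.3 FPKM in wild-type cells and 39.1 and 27.9 FPKM in the knockout. In the knockout the highest subunit was Bbs7, one of the beta-propeller subunits, at 19.0 and 14.2 FPKM against 21.1 and 29.8 FPKM in the wild type.

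None of the other 5 tested BBSome subunits passed. Bbs4 was at 9.06 and 9.75 versus 6.46 and 2.76 FPKM, a change of -0.97 (SE 0.45, limma adjusted p = 0.198). Bbs9 and Bbs2, which also contribute beta-propellers, overlapped between the groups: Bbs9 was at 4.59 and 8.79 versus 3.78 and 6.93 FPKM, and Bbs2 at 4.12 and 6.25 versus 5.86 and 1.46 FPKM. Ttc8, a tetratricopeptide-repeat subunit, stood at 2.71 and 3.12 versus 2.75 and 1.89 FPKM. The call on Bbs5 held in each alternative that kept all 4 libraries, where limma adjusted p ranged from 0.00123 to 0.0224. It ended with either wild-type library left out. A fit without 1 library takes its spread from the other genotype's pair alone, so such fits are not part of that range. Over all alternatives the change of Bbs5 stayed between -2.91 and -2.05.

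**Figure D2:**
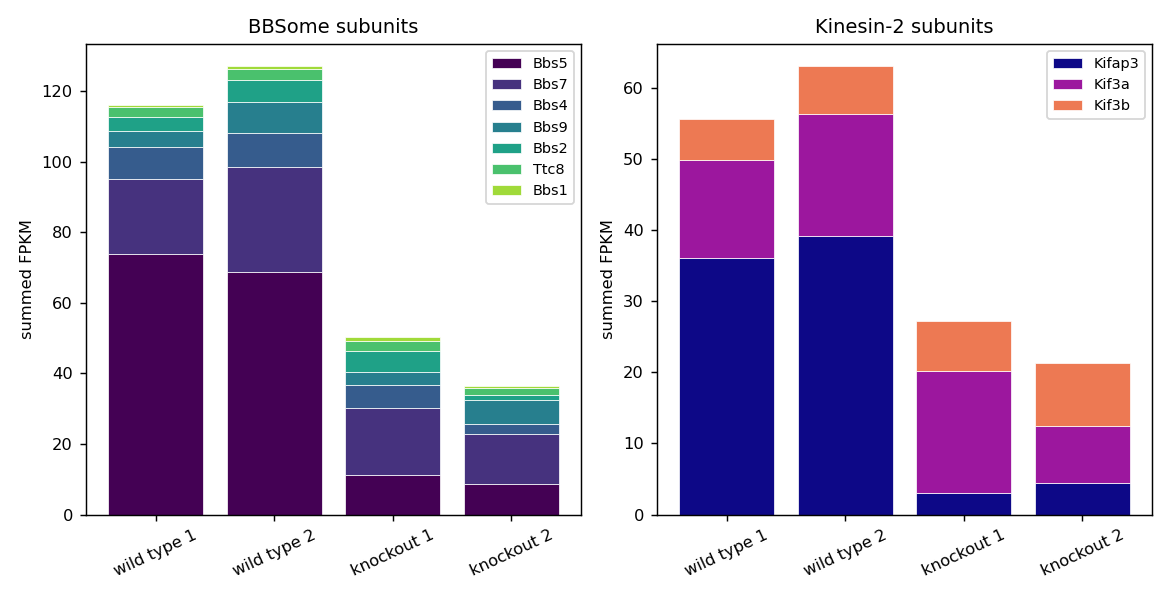
Summed FPKM of the BBSome subunits (left) and of the kinesin-2 subunits Kifap3, Kif3a and Kif3b (right) in each library, each bar stacked by gene and starting at 0. Bbs5 and Kifap3 form the largest block in both wild-type libraries. In both knockout libraries Bbs5 comes second to Bbs7, and Kifap3 is the smallest of the 3 kinesin-2 blocks.

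The chaperonin-like proteins Mkks, Bbs10 and Bbs12 help the BBSome assemble, and all 3 were low. Bbs10 was at 2.85 and 4.03 versus 2.17 and 0.863 FPKM, Bbs12 at 1.47 and 1.96 versus 1.21 and 0.989 FPKM, and Mkks at 2.16 and 2.09 versus 1.85 and 2.17 FPKM. None passed (limma adjusted p = 0.218, 0.480 and 0.924). Arl6, the GTPase that recruits the BBSome to membranes, was at 67.8 and 65.1 versus 50 and 25.5 FPKM, lower in both knockout libraries without passing (log2 change -0.88, SE 0.39, limma adjusted p = 0.191). Arl13b, a GTPase of the ciliary membrane that activates Arl3, was at 11.5 and 15.1 versus 6.56 and 8.37 FPKM (limma adjusted p = 0.206).

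Of 11 transition zone genes tested, 1 passed, lower in the knockout, and 10 did not. Cep290, a long coiled-coil protein that links the membrane to the microtubules at the gate, was at 9.88 and 9.35 FPKM in wild-type cells and 1.64 and 2.62 FPKM in the knockout. The wild-type values lay close together and far above both knockout values. Cep290 fell, with a change of -1.78 in log2 units (standard error 0.37) at a limma adjusted p of 0.0260. This call was less stable than that on Bbs5: limma adjusted p was 0.0619 with no filter on low values, 0.0828 after quantile normalization, 0.0600 with the library number as a block and 0.112 after a correction for GC content. The call ended with either wild-type library left out as well. Over the alternatives with all 4 libraries, limma adjusted p ranged from 0.0156 to 0.112. With a pseudocount of 5 its change was -1.04, and after the GC correction it was -1.04 too. In GENCODE M21, 9.45% of the exonic bases of Cep290 overlap 4930430F08Rik on the opposite strand, and the sources used here do not say whether counting used the strand. 4930430F08Rik stood at 9.67 and 10.01 versus 6.81 and 18.4 FPKM (limma adjusted p = 0.835).

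Below the threshold, 3 other gate genes came close. Iqcb1, a calmodulin-binding partner of Cep290, was at 9.93 and 7.10 versus 2.92 and 1.10 FPKM, a change of -1.71 (SE 0.45, limma adjusted p = 0.0567). Tctn1, a tectonic protein, was at 6.32 and 8.21 versus 2.20 and 2.28 FPKM (log2 change -1.34, limma adjusted p = 0.0581). B9d2, a partner of B9d1, differed the other way, at 4.46 and 4.86 FPKM in wild-type cells and 13.8 and 12.1 FPKM in the knockout (log2 change 1.30, SE 0.34, limma adjusted p = 0.0547). Each of the 3 separated the groups completely. All 3 passed in some alternatives and none of them without a wild-type library: Iqcb1 passed with a pseudocount of 5, a mean of at least 5 FPKM, median-ratio scaling and no mean-variance trend, Tctn1 after the GC correction and with no trend, and B9d2 after both scalings, with no trend and with crossed blocks. Without knockout library 1 or 2 the changes were -2.16 and -1.26 for Iqcb1, -1.32 and -1.36 for Tctn1, and 1.21 and 1.39 for B9d2. Such fits take their spread from the wild-type pair alone, so whether a gene passes there is not given. In GENCODE M21, 27.5% of the exonic bases of Tctn1 overlap Hvcn1 on the opposite strand, which was at most 0.632 FPKM in each library.

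Other gate genes did not pass. Rpgrip1l, a scaffold of the gate, was at 2.46 and 3.04 versus 0.640 and 1.11 FPKM, and Tmem67, a membrane receptor there, at 6.44 and 11.5 versus 5.61 and 2.42 FPKM. Their groups did not overlap (limma adjusted p = 0.112 and 0.217). Tctn2 and Tctn3, the other tectonics, overlapped between genotypes, at 27.6 and 51.7 versus 38.5 and 29.5 FPKM and at 10.2 and 14.9 versus 18.2 and 3.97 FPKM. Ahi1, which joins the tectonics in the same module, stood at 23.0 and 31.7 versus 14.6 and 26.4 FPKM. Mks1, a further B9-domain protein, varied more within genotypes than between them, at 0.537 and 3.16 versus 2.52 and 0.587 FPKM.

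The summed level of the 12 IFT-B genes was 491 and 503 FPKM in wild-type cells and 474 and 523 FPKM in the knockout. None passed, 7 were lower in both knockout libraries and 3 higher in both. Without overlap between the groups, 38.6% of all genes tested lay lower and 22.2% higher. Ift74, which pairs with Ift81 to bind tubulin, had the highest mean over the 4 libraries, at 125 and 122 versus 69.5 and 118 FPKM, although Ift27 and Ift46 stood above it in knockout library 1 (limma adjusted p = 0.423). Ift81 was at 33.5 and 37.0 versus 18.2 and 17.9 FPKM, with a change of -0.93 (SE 0.30, limma adjusted p = 0.0966). Ift88, a core subunit known from studies of flagellum assembly, was at 17.2 and 18.2 versus 3.58 and 8.66 FPKM (log2 change -1.49, SE 0.45, limma adjusted p = 0.0848). Ift80, of the peripheral IFT-B set, was at 3.87 and 5.82 versus 0.751 and 1.57 FPKM (log2 change -1.44, SE 0.40, limma adjusted p = 0.0647). For Ift81, Ift88 and Ift80 the groups did not overlap.

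Further IFT-B genes lower in both knockout libraries were Ift57, at 56.9 and 62.5 versus 41.2 and 21.9 FPKM, Ift172, the largest subunit, at 13.1 and 15.5 versus 7.43 and 9.51 FPKM, and Ift52, a core scaffold, at 25.7 and 29.8 versus 24.5 and 17.1 FPKM. Limma adjusted p was 0.154, 0.223 and 0.438. Ift27, a small GTPase of the complex, stood higher in both knockout libraries, at 48.6 and 47.9 versus 115 and 74.4 FPKM (log2 change 0.93, SE 0.33, limma adjusted p = 0.121). Its partner Hspb11, also known as Ift25, was at 53.2 and 56.8 versus 53.2 and 87.6 FPKM, with the groups overlapping. Traf3ip1, also known as Ift54, was at 5.63 and 6.48 versus 10.6 and 15.4 FPKM (log2 change 0.97, limma adjusted p = 0.136), and Ift46 at 40.1 and 44.0 versus 71.1 and 47.7 FPKM. Ift20, which works at the Golgi as well as in the cilium, overlapped at 68.2 and 57.4 versus 59.1 and 104 FPKM.

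None of the 5 IFT-A genes passed. Each was higher in wild-type library 2 than in wild-type library 1, and the summed level was 56.1 and 102 FPKM in the wild type against 67.3 and 51.7 FPKM in the knockout. Over all 42 tested genes, 31 (73.8%) were higher in wild-type library 2, as were 58.8% of all genes tested. Ift122 and Ift140, subunits with WD repeats, were at 13.9 and 29.4 versus 26.5 and 16.6 FPKM and at 9.20 and 15.2 versus 14.9 and 14.2 FPKM. Wdr35 was at 20.3 and 33.6 versus 13.8 and 12.9 FPKM (log2 change -0.92, SE 0.37, limma adjusted p = 0.154) and Ttc21b at 8.43 and 16.4 versus 6.66 and 5.24 FPKM (limma adjusted p = 0.216). Wdr19 overlapped at 4.25 and 7.40 versus 5.40 and 2.66 FPKM. Sertoli cell markers were also higher in wild-type library 2, as given above, as were the sums of spermatogonium, macrophage and somatic motile cilia markers. Those of spermatocyte and peritubular markers were lower there. So were round spermatid (13178 and 8452 FPKM in wild-type libraries 1 and 2), Leydig (60.3 and 37.3 FPKM) and red blood cell markers (248 and 148 FPKM). The part of these marker differences was not tested.

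Both tested genes of the IFT dynein missed the threshold. Dync2h1, the heavy chain that holds the motor, was at 4.98 and 6.27 versus 1.42 and 3.17 FPKM, lower in both knockout libraries (log2 change -1.05, SE 0.42, limma adjusted p = 0.153). Dync2li1, the light intermediate chain, was at 54.9 and 46.5 FPKM in wild-type cells, 53.1 FPKM in knockout library 1 and 15.4 FPKM in knockout library 2 (limma adjusted p = 0.399), so only knockout library 2 stood apart.

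**Figure D3:**
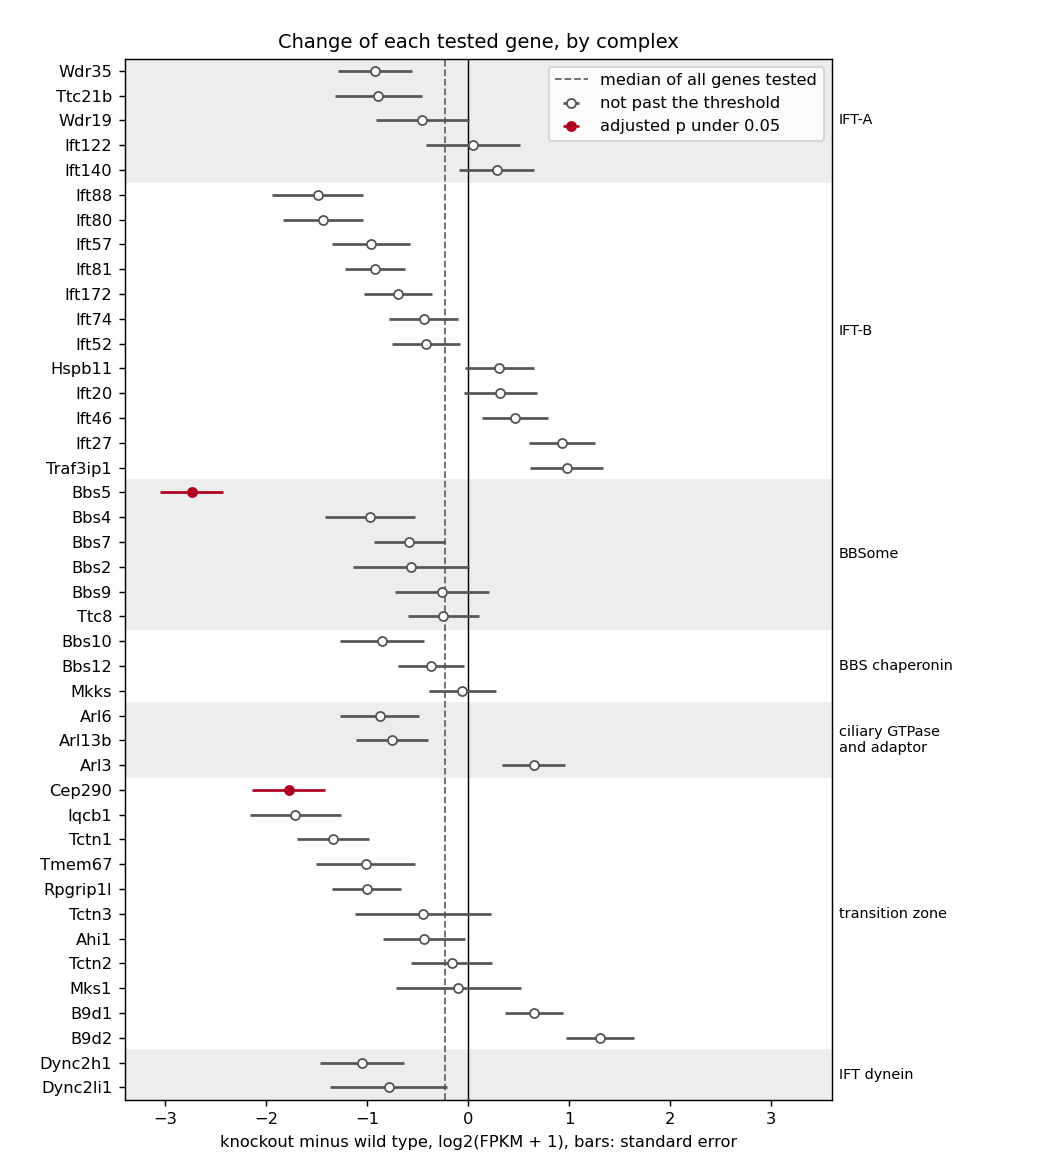
Log2 change of the 42 tested genes (knockout minus wild type, log2(FPKM + 1) scale) with standard errors, grouped by complex, with filled points past an adjusted p of 0.05 and a dashed line at the median of all genes tested, -0.23. The filled points are Bbs5 at -2.74 and Cep290 at -1.78, and B9d2 at 1.30 lies farthest to the right.

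By complex, the median log2 change was -0.46 for IFT-A, -0.43 for IFT-B, -0.58 for the BBSome, -0.37 for the chaperonins, -0.76 for the GTPases, -0.45 for the transition zone and -0.92 for the IFT dynein. The signs for IFT-A, IFT-B and the chaperonins depended on the scaling or GC correction. The other medians stayed negative in each of the settings that follow. The median over all 9124 genes, -0.23 as deposited, became 0.17 after quantile normalization. The GC correction brought it to 0.02, and median-ratio scaling gave -0.09. The IFT-A median was then 0.10 after quantile normalization, the IFT-B median 0.04 after the GC correction, and the chaperonin median 0.19 and 0.21 after the former and the latter. Relative to all genes, the median of the 42 lay lower in each case: the difference was -0.28 both as deposited and with median-ratio scaling, -0.31 after quantile normalization and -0.20 after the GC correction.

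The changes went with the base composition of the transcripts and, less closely, with their length. Across the 42 genes the log2 change and the GC content of the longest transcript had a Spearman correlation of 0.65 (Pearson 0.64), a description over genes that share the same libraries, beside 0.33 over the 8994 genes with a GC value. The 29 genes below the median GC of all genes, 49.1%, had a median change of -0.86, and the 13 at or above it had 0.05. Over all genes the corresponding medians were -0.51 and 0.08. With transcript length the Spearman correlation was -0.45 (Pearson -0.34) over the 42 and -0.12 (Pearson 0.02) over all genes. The 16 of the 42 below the all-gene median length of 2717 nucleotides had a median change of -0.31 and the other 26 had -0.81, beside -0.08 and -0.35 over all genes. Cep290 had the lowest GC content of the 42, at 38.7%, and Bbs5 the second lowest, at 39.9%. Ift27 and B9d2, which differed the other way, had 55.8% and 56.0%. Tctn1, at 55.6%, was lower in the knockout all the same. Bbs5 still passed after the GC correction, with a change of -2.05 (limma adjusted p = 0.00173).

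**Figure D4:**
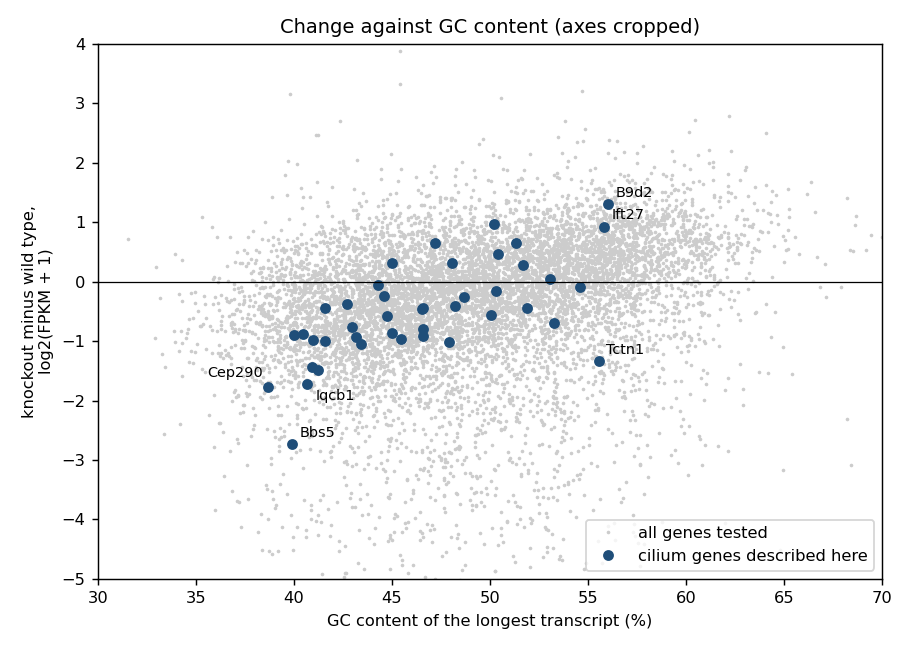
Log2 change against the GC content of the longest GENCODE M21 transcript for the 42 tested genes (blue) over all genes tested (grey), with values outside the axes not drawn. The blue points rise from the lower left, where Cep290 and Bbs5 lie, to B9d2 and Ift27 at the upper right, and Tctn1 sits below that trend.

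Among 46 further genes of the same pathway found in the tables, listed by function, 42 were tested, 3 fell, 0 rose and 39 did not pass. The 3 are 7.14% of the 42, where 13.4% of all genes tested were called lower and 1.95% higher. The clearest was Kifap3, the accessory subunit that completes the kinesin-2 motor of outward transport. It was at 36.1 and 39.2 FPKM in wild-type cells and 2.99 and 4.48 FPKM in the knockout, and its change was -3.05 in log2 units (standard error 0.35) at a limma adjusted p of 0.00294. The motor subunits Kif3a and Kif3b did not pass, at 13.8 and 17.1 versus 17.2 and 7.92 FPKM and at 5.82 and 6.73 versus 7.003 and 8.91 FPKM. Kif17, also on the kinesin list, lay lower without overlap, at 3.97 and 5.37 versus 1.67 and 1.35 FPKM. It did not pass either (log2 change -1.17, SE 0.36, limma adjusted p = 0.0858). Kif3c reached at most 0.204 FPKM and was not tested. The call on Kifap3 ended only without wild-type library 1 or 2. Over its alternatives with all 4 libraries, limma adjusted p ranged from 0.000725 to 0.0249.

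Rpgr, an X-linked regulator of the gate, fell from 7.67 and 8.44 FPKM to 0.911 and 1.54 FPKM (log2 change -2.04, SE 0.36, limma adjusted p = 0.0155). Its call ended with no filter on low values (0.0534) and without wild-type library 1 or 2 (0.220 and 0.246). Rp2h, the mouse RP2 gene whose product acts on Arl3, fell from 5.37 and 4.96 FPKM to 1.35 and 0.137 FPKM (log2 change -1.91, SE 0.45, limma adjusted p = 0.0405). That call ended with a pseudocount of 0.1 (0.116), with no filter (0.119), after quantile normalization (0.0651), after the GC correction (0.130) and without wild-type library 1 or 2 (0.376 and 0.396). Neither Rpgr nor Rp2h was tested in the alternative with a mean of at least 5 FPKM. The most abundant of the further pathway genes encode dynein light chains. Tctex1d2 was at 1237 and 951 versus 1648 and 2361 FPKM, and Dynlt1b at 895 and 689 versus 1458 and 1689 FPKM (limma adjusted p = 0.127 and 0.0681).

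By group, 1 of 4 tested kinesin genes, 1 of 10 further gate genes and 1 of 8 lipid-cargo genes fell, beside 13.4% of all genes tested, and none of the 6 further IFT genes, 6 BBSome partners, 7 dynein partners and 1 kinase passed. Rabl5, the gene of the IFT-B subunit IFT22, picked after its values were seen, was the highest IFT gene of either list, at 320 and 252 versus 604 and 572 FPKM (limma adjusted p = 0.0556). Its groups did not overlap, and it lay in the direction of Ift27, the other small GTPase of IFT-B. Most of the 6 further IFT genes went the other way. Rabl5 was the 1 that lay higher without overlap, 4 lay lower without overlap and 1 overlapped. The median log2 change of the 6 was -0.89.

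Promoters were read for the 41 of the 46 genes that RefSeq windows covered (all but Dync2li1, Ift122, Ift80, Ift81 and Tmem67), each from 250 bases before to 50 after an annotated start (build GRCm38.p6). The windows of the 2 genes that fell are shown because the test singled them out, with matches of the letters GTTGCC or GTTACC, and of ACAAT, on either strand in capitals. The first 2 are core letters of the X-box, bound by RFX factors at many cilium genes, and the third is a core recognised by SOX proteins. Bbs5 lies at chr2:69646921-69647220 on the plus strand, and Cep290 at chr10:100487332-100487631 on the plus strand.
Bbs5: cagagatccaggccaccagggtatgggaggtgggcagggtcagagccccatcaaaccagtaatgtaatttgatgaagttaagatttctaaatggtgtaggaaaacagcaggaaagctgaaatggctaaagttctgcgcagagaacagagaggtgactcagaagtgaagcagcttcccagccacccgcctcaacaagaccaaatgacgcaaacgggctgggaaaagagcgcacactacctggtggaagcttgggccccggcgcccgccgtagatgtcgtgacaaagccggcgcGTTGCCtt
Cep290: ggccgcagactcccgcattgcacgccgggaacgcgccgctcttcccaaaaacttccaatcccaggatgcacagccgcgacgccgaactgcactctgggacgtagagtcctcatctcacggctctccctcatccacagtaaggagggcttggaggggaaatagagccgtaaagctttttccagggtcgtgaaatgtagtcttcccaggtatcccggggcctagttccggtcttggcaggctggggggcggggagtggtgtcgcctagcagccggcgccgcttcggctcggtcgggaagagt

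The Bbs5 window held GTTGCC once, close to its end, and the Cep290 window held none of the 3. GC content was 62.3% in the Cep290 window and 54.0% in the Bbs5 window. The full-length X-box consensus with free bases at its variable positions, searched on either strand and able to contain GTTGCC or GTTACC, was in the windows of 12 of the 41 genes (29.3%), against 5.26% of the 27025 genes with a window. GTTGCC was found for 20 of the 41 (48.8%, against 14.1%), GTTACC for 9 (22.0% against 8.16%) and ACAAT for 7 (17.1% against 34.4%). These are matches of letters, not shown sites.

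The longer form was found for 6 of 12 transition zone genes, 3 of 7 BBSome genes, 1 of 10 IFT-B genes, 1 of 4 IFT-A genes and the 1 IFT dynein gene with a window. Stretches around it are shown for 6 genes, with the match in capitals, so that the letters can be compared between genes of different complexes, and the Tctn1 stretch stops at the end of its window. They lie at chr3:36613487-36613520 (minus strand) for Bbs7, chr9:59353462-59353495 (minus) for Bbs4, chr5:122264411-122264434 (minus) for Tctn1, chr7:25680786-25680819 (plus) for B9d2, chr10:20952558-20952591 (plus) for Ahi1 and chr9:7177020-7177053 (minus) for Dync2h1.
Bbs7: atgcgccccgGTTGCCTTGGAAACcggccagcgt
Bbs4: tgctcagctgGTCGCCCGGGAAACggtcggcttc
Tctn1: ggctgtgactGTTGCCCGGGCAAC
B9d2: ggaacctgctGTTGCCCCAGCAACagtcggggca
Ahi1: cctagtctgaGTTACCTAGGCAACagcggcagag
Dync2h1: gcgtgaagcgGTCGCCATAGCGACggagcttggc

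Tctn1, with lower knockout values, and B9d2, with higher knockout values, both carried a match that opens with GTTGCC.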

How the data were processed

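RNA was sequenced from sorted haploid testis cells of 2 wild-type and 2 Sox30 knockout libraries, prepared, per the labels' protocols, with a NEBNext Ultra kit. The authors deposited FPKM per gene, 1 table a library. Per the submitters' processing notes, Cufflinks 2.0.2, Cuffdiff, TopHat2 2.0.6 and the mm9 build were used. Their roles and settings, and whether counting used the strand, are not stated. Depth is unknown, so no counting intervals are given.

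Groups came from the sample titles. Entries of one symbol were summed (23021 entries, 22552 symbols). Genes with a mean of at least 1 FPKM (9124) were fitted as log2(FPKM + 1) with genotype as the only term in limma 3.58.1 (R 4.3.3), with a mean-variance trend, 2 residual and 3.84 prior degrees of freedom and Benjamini-Hochberg adjustment. The fit was tested on simulated data. GENCODE M21 gave the GC content and length of the longest transcript (22130 symbols matched), and RefSeq GRCm38.p6 gave promoter windows. GENCODE's build differs from the authors', so no other coordinates are given.

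By rule, genes named were those past the threshold, those below the filter, in each complex the 2 of highest mean level and the 2 of largest absolute change, and the 2 further pathway genes of highest mean. The other genes of the complexes, given so that each is accounted for, and Kif3a, Kif3b, Kif3c, Kif17 and Rabl5, were picked after their values were seen. The genes, lists and settings were chosen with earlier results of these data known. Alternatives were pseudocounts of 0.1 and 5, no filter, a mean of at least 5 FPKM, quantile normalization, median-ratio scaling, no trend, robust empirical Bayes, leaving out each library, the library number as a block, symbols listed once, a lowess GC correction (span 0.3), an adjusted p under 0.1 and, added after seeing the data, a block with crossed numbers. The deviations of same-numbered libraries had a weak negative correlation across genes (r = -0.20). With 2 libraries per genotype, crossed numbers give the mirror value (0.20), so the sign rests on the numbering.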

Additional observations from a re-analysis of the deposited data

How the results depend on the processing

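Of the 42 tested genes of the complexes, 27 kept the sign of their change in every alternative that tested them, Bbs5 and Cep290 among them. With a mean of at least 5 FPKM only 31 of the 42 were tested. Counts in the order lower then higher follow, for all genes (1221 and 178), the complexes (2 and 0) and the further pathway genes (3 and 0), only where they moved by over 1.5 times. With a pseudocount of 0.1, 113 genes were higher. With no filter on low values 62 of the then 17790 genes tested were higher, and 1 gene of the complexes and 1 further gene were lower. With a mean of at least 5 FPKM 787 of the then 5456 genes tested were lower and 1 further gene was higher. After median-ratio scaling 1 gene of the complexes was higher. After quantile normalization 606 genes were higher, the complexes had 1 lower and 3 higher, 4 further genes were higher and the median of the complexes was -0.15. With no trend the complexes had 4 and 1. After the GC correction 323 genes were higher, further genes numbered 5 and 1, and the median was -0.18. At an adjusted p under 0.1, 414 genes were higher, the complexes had 7 and 1 and further genes 7 and 3. With the replicate block 82 genes were higher and 1 gene of the complexes, Bbs5, was lower, while Cep290 had limma adjusted p = 0.0600. With 2 pairs the numbers share only a name. With crossed numbers, 390 genes, 1 gene of the complexes and 5 further genes were higher, and 5 further genes lower.

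Leaving out 1 library each gave from 0 to 3071 lower and from 0 to 984 higher genes, from 0 to 17 and from 0 to 3 in the complexes, from 0 to 15 and from 0 to 5 further genes, and a median from -0.80 to -0.33. The highest counts of lower genes came without knockout library 1. Without wild-type library 1, limma called 386 of all genes lower and 0 higher, and both lists had 0 calls. At an unadjusted p under 0.05 there were 1333 lower and 184 higher of all 9124 genes, 6 and 0 in the complexes and 4 and 1 among further genes. Without wild-type library 2 no gene of all 9124 passed, with 1180 lower and 232 higher at an unadjusted p under 0.05, of which 2 and 0 were in the complexes and 2 and 0 further genes. A lone library was assumed to vary like the other genotype's pair.

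None of the genes whose sign turned had passed. After median-ratio scaling the changes were 0.0637 for Mkks, 0.00354 for Mks1 and 0.00978 for Tctn2. After quantile normalization they were 0.19 for Bbs12, 0.29 for Bbs9, 0.51 for Mkks, 0.47 for Mks1, 0.13 for Tctn2, 0.0242 for Tctn3, 0.33 for Ttc8 and 0.10 for Wdr19. After the GC correction they were 0.21 for Bbs12, 0.0342 for Bbs9, 0.18 for Ift74, 0.45 for Mkks, 0.0404 for Tctn2 and 0.25 for Ttc8. Leaving out 1 library gave ranges of -0.47 to 0.56 for Ift122, -0.0517 to 0.61 for Ift140, -0.67 to 0.14 for Bbs9, -0.82 to 0.62 for Mks1, -0.60 to 0.28 for Tctn2, -0.14 to 0.0203 for Mkks, -1.31 to 0.17 for Bbs2, -1.65 to 0.0707 for Dync2li1, -0.0467 to 0.66 for Hspb11, -0.0801 to 0.72 for Ift20 and -1.42 to 0.52 for Tctn3. The cause was not tested. The unknown depth limits what can be said of the 4 genes under 1 FPKM.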
